A study of Mus musculus with 9 samples.

Results

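The IKK complex and NF-κB were followed in mouse liver through 10 genes: the kinase complex subunits Ikbkg (which encodes NEMO), Ikbkb and Chuk, the NF-κB subunits Nfkb1, Nfkb2, Rela, Relb and Rel, and the feedback inhibitors Nfkbia and Tnfaip3. They were found by their symbols in the annotation of the array's probe sets, the groups of short probes that read out 1 gene. Of the 10 genes, 8 matched a probe set, each with 1 probe set, among 28939 probe sets tested. No probe set with the single symbol Chuk or Nfkb1 was matched, and both are not analysed here.

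RNA of whole liver from male C57/BL6 mice aged 8 to 9 weeks was measured on 9 Affymetrix arrays, 3 per genotype. The first group was wild type. The second, NEMOΔhepa, lacked NEMO in hepatocytes and is called the NEMO knockout. The third came from crossing NEMOΔhepa with mice constitutively p21-/-, so that NEMO was targeted in hepatocytes in both knockout groups, and there was no group lacking p21 alone. The sources used here give neither the promoter that drives the recombinase nor the targeted exons, nor whether the wild type mice were littermates. Whole liver also contains Kupffer cells, other immune cells, endothelium, stellate cells and bile duct cells, in which NEMO was not targeted per the labels.

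The NF-κB proteins form dimers that are held inactive by IκB inhibitors such as the product of Nfkbia. In the canonical pathway, receptors for tumour necrosis factor or interleukins recruit the IKK complex through ubiquitin chains bound by NEMO, and its kinase IKKβ marks IκB for destruction, which frees Rela and Rel dimers to enter the nucleus. In the non-canonical pathway, the kinase encoded by Map3k14 acts through IKKα, without NEMO, to process the Nfkb2 product and release Relb dimers. Nfkbia and Tnfaip3 are themselves induced by NF-κB and close the loop, and in liver the pathway is known for protecting hepatocytes from cell death caused by tumour necrosis factor.

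Because several of these genes are known to be induced by NF-κB, their promoters were searched for the NF-κB recognition pattern (GGG, then any 3 bases, then TTCC) on both strands, in the 250 bases before the most upstream start that the RefSeq promoter table (GRCm38.p6) lists for each gene. A promoter window was found for 7 of the 10 genes, and 5 of the 7 held a match, against 4.65% of all 32851 windows (1527 windows). That share counts every listed start, also where a gene has several, while each gene here enters only with its most upstream start. The share of G and C bases was not matched, so the 2 shares are not strictly alike. The matches lay in Chuk, Nfkb2 (with 2 matches), Rel, Nfkbia and Tnfaip3. The windows of Ikbkg and Rela held no match. The last 100 bases before the start are shown for the 4 measured genes with a match, 5′ to 3′ on the gene's strand, with each match in capitals; a match on the opposite strand reads as the reverse complement.
Nfkb2, chr19:46304637-46304736, plus strand: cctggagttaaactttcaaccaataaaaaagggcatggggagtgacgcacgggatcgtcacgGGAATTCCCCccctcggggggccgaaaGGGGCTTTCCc
Rel, chr11:23770970-23771069, minus strand: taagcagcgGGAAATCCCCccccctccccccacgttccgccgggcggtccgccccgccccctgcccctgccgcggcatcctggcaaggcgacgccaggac
Nfkbia, chr12:55492648-55492747, minus strand: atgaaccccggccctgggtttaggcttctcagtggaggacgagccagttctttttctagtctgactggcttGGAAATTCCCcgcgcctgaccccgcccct
Tnfaip3, chr10:19015411-19015510, minus strand: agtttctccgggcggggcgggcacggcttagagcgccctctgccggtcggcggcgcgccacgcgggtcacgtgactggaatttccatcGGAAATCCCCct
The first matched base lay 38 and 11 bases before the start in Nfkb2, 91 in Rel, 29 in Nfkbia and 12 in Tnfaip3, and the 2 matches in Nfkb2 do not overlap. A match describes the letters only and was not tested as a binding site.

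The labelled genotypes were first set against the targeted genes. Cdkn1a, which encodes p21, was read out by a probe set annotated jointly to Cdkn1a and 4930567H12Rik, at 8.67 ± 0.91 in wild type, 10.10 ± 0.53 with NEMO knocked out and 10.78 ± 0.56 in the third group (log2 signal, mean ± SD, n = 3). It was not reduced in the mice labelled as lacking p21 (2.11 higher than wild type, SE 0.45, limma adjusted p = 0.0194), which are therefore called the labelled double knockout. Whether this probe set covers the deleted part of Cdkn1a is not given in the sources used here. The array medians lay between 6.47 and 6.48 in wild type and between 6.52 and 6.58 in the knockout groups, so every knockout array had the higher median. Pairs of arrays of 1 genotype correlated at 0.994 to 0.996 and pairs of different genotypes at 0.986 to 0.995 (Pearson's r across probe sets, which are not independent). Hepatocyte markers were bright in all arrays, with a mean over 9 genes of 13.07 to 13.27.

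Ikbkg itself was lower in both knockout groups, and it was the only gene of the 8 called in each comparison with wild type. The wild type arrays read 8.73, 8.89 and 8.98, the NEMO knockout arrays 8.23, 8.48 and 8.35, and the labelled double knockout arrays 8.10, 8.26 and 8.45 for replicates 1, 2 and 3 (log2 signal). All 6 knockout arrays lay below all 3 wild type arrays, while the knockout groups overlapped each other. In the NEMO knockout the Ikbkg signal was 0.52 lower on the log2 scale (-0.52, SE 0.11, 95% confidence interval -0.76 to -0.28, limma adjusted p = 0.0184), which is 69.8% of the wild type signal (interval 58.9% to 82.6%). In the labelled double knockout it stood at 66.0% (55.7% to 78.2%; difference -0.60, interval -0.84 to -0.36, adjusted p = 0.00835). The knockout groups differed from each other by -0.08 (interval -0.32 to 0.16, adjusted p = 0.928). With both knockout groups set together against wild type, the difference was -0.56 (SE 0.09, adjusted p = 0.00447), or 67.9% of wild type.

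The comparisons share arrays and are not independent of each other. The call in the NEMO knockout was lost on leaving out replicate 2 (adjusted p = 0.0625) or 3 (0.0729) of wild type, or replicate 1 (0.0524) or 3 (0.0647) of the NEMO knockout, with differences from -0.59 to -0.46 over all arrays left out in turn. The other Ikbkg calls, in the labelled double knockout and in both knockout groups together, were kept under every alternative run, at adjusted p values up to 0.0375 and 0.0279. In whole liver a residual signal from cells that were not targeted, and fewer cells of a type or less RNA per cell, cannot be told apart. Whether the Ikbkg probes lie inside the deleted part of the gene is not given in the sources used here. By p-value Ikbkg ranked 1413 for the NEMO knockout and 1125 for the labelled double knockout against wild type, of 28939 probe sets.

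Ikbkb, the catalytic IKKβ subunit, showed nearly the same signal in all genotypes. It read 8.45, 8.48 and 8.42 on the wild type arrays, 8.44, 8.44 and 8.50 on the NEMO knockout arrays, and 8.28, 8.45 and 8.50 on those of the labelled double knockout. The groups overlapped throughout, with the lowest array in the labelled double knockout. The NEMO knockout differed from wild type by 0.01 (interval -0.15 to 0.17, limma adjusted p = 0.951) and the labelled double knockout by -0.04 (-0.20 to 0.12, adjusted p = 0.841), so that a change in either direction above 0.20 lies outside both intervals.

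**Figure D1:**
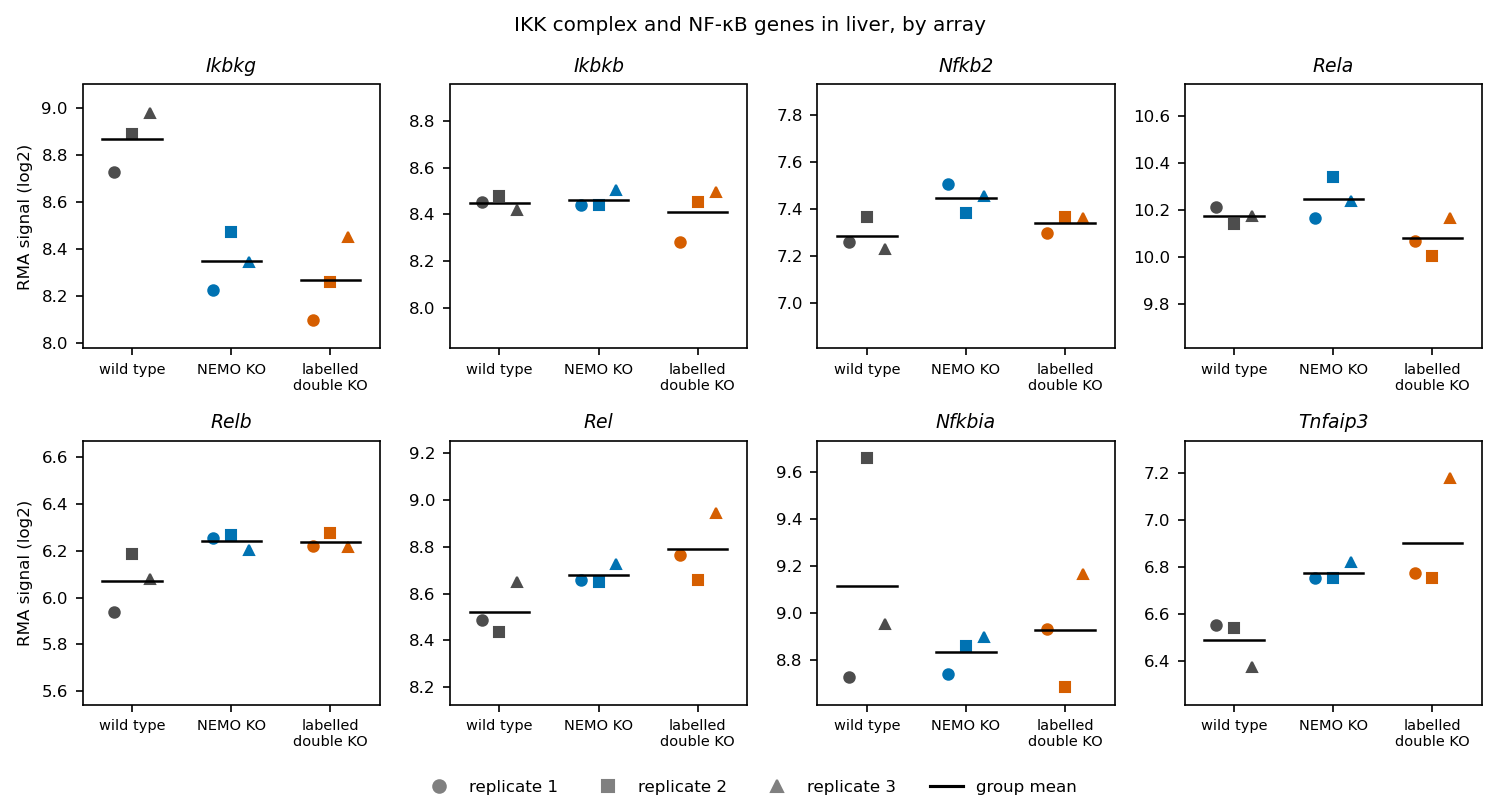
Log2 signal of each of the 8 measured genes on each array (vertical axes, all spanning an equal range of log2 units but with different centres; symbols give the replicate, colours the genotype, lines the group mean of 3 arrays). The Ikbkg points of both knockout groups lie below all wild type points, the Tnfaip3, Rel and Relb points of both lie above them, and wild type replicate 2 of Nfkbia stands at 9.66 above the other arrays.

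Among the 8 measured genes, 1 was called in the NEMO knockout against wild type (background 7.68% of all probe sets tested) and 2 in the labelled double knockout against wild type (background 9.32%), namely Ikbkg, lower, and Tnfaip3, higher. With both knockout groups together the same 2 genes were called (background 11.2%). None was called between the knockout groups (background 0.197%), where 1, Rela, had an unadjusted limma p under 0.05. With so few genes these counts carry little weight against the background shares. The median difference of the 8 genes was 0.11 for the NEMO knockout and 0.01 for the labelled double knockout, beside -0.04 and -0.03 over all probe sets tested.

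The counts of non-overlapping groups were larger. In the NEMO knockout, 4 genes (Nfkb2, Relb, Rel and Tnfaip3) had all arrays above wild type and 1 (Ikbkg) all below, against 23.2% of all probe sets with non-overlapping groups in either direction. In the labelled double knockout 3 (Relb, Rel and Tnfaip3) lay above and 1 below, against a background of 25.1%, and with both knockout groups together the counts were the same, against 16.1%. Between the knockout groups 1 gene, Nfkb2, did not overlap and was lower in the labelled double knockout (background 10.7%).

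**Figure D2:**
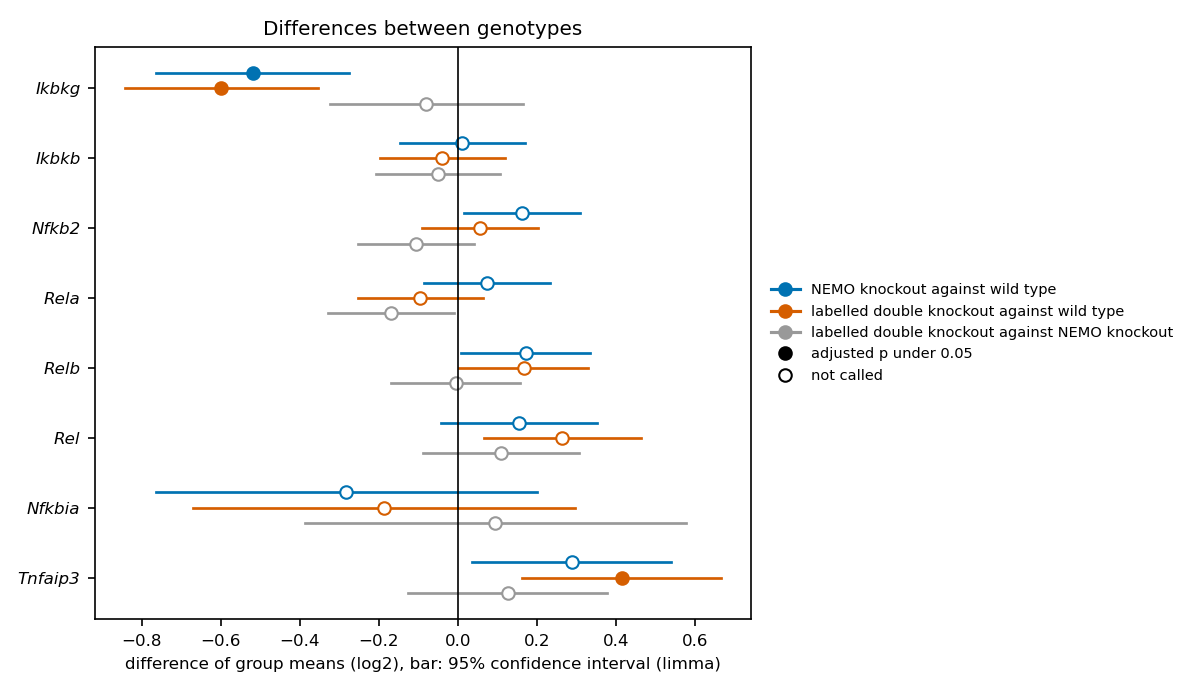
Difference between group means (log2, horizontal axis) for each measured gene, with 95% confidence intervals from limma; filled points passed an adjusted p of 0.05. Filled points appear for Ikbkg against wild type in both knockout groups and for Tnfaip3 in the labelled double knockout, and all differences between the knockout groups are open.

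The NF-κB subunits showed differences of at most 0.27 on the log2 scale, none of them called. Rela, the main transactivating subunit of the canonical pathway, read 10.21, 10.14 and 10.17 on the wild type arrays, 10.17, 10.34 and 10.24 on the NEMO knockout arrays, and 10.07, 10.005 and 10.17 on those of the labelled double knockout. The labelled double knockout arrays were mostly the lowest, and each pair of groups overlapped. Rela differed from wild type by 0.07 in the NEMO knockout (interval -0.08 to 0.23, limma adjusted p = 0.616) and by -0.10 in the labelled double knockout (-0.25 to 0.06, adjusted p = 0.527). Between the knockout groups it differed by -0.17 (-0.33 to -0.01, limma adjusted p = 0.634), which did not pass the test. The NEMO knockout difference from wild type became 0.12 without replicate 1 and 0.03 without replicate 2 of that group, and the labelled double knockout difference became -0.06 without its replicate 2.

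Rel, the c-Rel subunit best known from lymphocytes and other immune cells, had its highest arrays in the labelled double knockout. Its signals were 8.49, 8.43 and 8.65 on the wild type arrays, 8.66, 8.65 and 8.73 on the NEMO knockout arrays, and 8.77, 8.66 and 8.94 on those of the labelled double knockout. Every knockout array lay above the wild type arrays, the closest of them at nearly the same signal. The difference from wild type was 0.16 in the NEMO knockout (interval -0.04 to 0.35, limma adjusted p = 0.376) and 0.27 in the labelled double knockout (SE 0.09, 0.07 to 0.46, adjusted p = 0.108).

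The subunits of the non-canonical pathway, Nfkb2 and Relb, were not called either. Nfkb2, whose precursor protein is processed in that pathway, read 7.26, 7.37 and 7.23 on the wild type arrays, 7.51, 7.38 and 7.46 on the NEMO knockout arrays, and 7.30, 7.37 and 7.36 on those of the labelled double knockout. The NEMO knockout arrays lay above both other groups, and the labelled double knockout overlapped wild type. Nfkb2 differed from wild type by 0.16 in the NEMO knockout (SE 0.07, interval 0.02 to 0.31, limma adjusted p = 0.194) and by 0.06 in the labelled double knockout (-0.09 to 0.20, adjusted p = 0.724), and the knockout groups differed by -0.11 (-0.25 to 0.04, adjusted p = 0.776). The labelled double knockout difference from wild type became 0.10 without wild type replicate 2 and 0.03 without wild type replicate 3.

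Relb, the partner of the processed Nfkb2 product, read 5.94, 6.19 and 6.08 on the wild type arrays, 6.25, 6.27 and 6.20 on the NEMO knockout arrays, and 6.22, 6.27 and 6.21 on those of the labelled double knockout. All knockout arrays lay above wild type and the knockout groups coincided. The differences from wild type were 0.17 in each (limma adjusted p = 0.221 and 0.227), and 0.17 for both together (interval 0.03 to 0.31, adjusted p = 0.133). Without wild type replicate 1, the lowest array, they were 0.11, 0.10 and 0.10.

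Of the feedback inhibitors, Tnfaip3 passed the test in the labelled double knockout, close to the threshold, and Nfkbia passed it in no comparison. Tnfaip3 encodes A20, a ubiquitin-editing enzyme that ends signalling from the tumour necrosis factor receptor. Its signals were 6.55, 6.54 and 6.37 on the wild type arrays, 6.75, 6.76 and 6.82 on the NEMO knockout arrays, and 6.78, 6.75 and 7.18 on those of the labelled double knockout. All 6 knockout arrays lay above wild type, and labelled double knockout replicate 3 stood highest.

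Tnfaip3 was 0.41 higher in the labelled double knockout than in wild type (interval 0.16 to 0.67, limma adjusted p = 0.0495, 133% of wild type) and 0.35 higher in both knockout groups together (SE 0.10, 0.13 to 0.57, adjusted p = 0.0476, 128%). In the NEMO knockout it differed by 0.29 (SE 0.11, 0.04 to 0.54, adjusted p = 0.181), and the knockout groups differed by 0.13 (adjusted p = 0.868), so the sizes of these effects are not shown to differ. The call in the labelled double knockout lies at the threshold: it was lost in 15 of 21 alternatives, with adjusted p values from 0.0295 to 0.162 over all of them. It was lost without any 1 of the wild type arrays (0.0921, 0.0945 and 0.162, in the order of the replicates, as in all such lists), any 1 of the NEMO knockout arrays (0.0674, 0.0755 and 0.0725), or replicate 1 (0.0589) or 3 (0.0921) of the labelled double knockout. The call for both groups together was lost in 11 of 20 alternatives (0.0291 to 0.183), among them without any 1 of the wild type arrays (0.0962, 0.102 and 0.183) or of the NEMO knockout arrays (0.0704, 0.0803 and 0.0939). Without labelled double knockout replicate 3, which enters that fit only through the shared spread, the NEMO knockout difference passed the threshold (adjusted p = 0.04997).

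Nfkbia encodes IκBα, the inhibitor that IKK marks for destruction. It read 8.73, 9.66 and 8.95 on the wild type arrays, 8.74, 8.86 and 8.90 on the NEMO knockout arrays, and 8.93, 8.68 and 9.17 on those of the labelled double knockout. The groups overlapped, and the wild type spread (SD 0.49) came from replicate 2. The difference from wild type was -0.28 in the NEMO knockout (SE 0.21, interval -0.77 to 0.20, limma adjusted p = 0.523) and -0.19 in the labelled double knockout (-0.67 to 0.30, adjusted p = 0.723). Without wild type replicate 2 these became -0.01 and 0.09, and without wild type replicate 1 -0.48 and -0.38. Leaving out replicate 2 or 3 of the labelled double knockout gave -0.07 or -0.31 for that group.

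Around these genes, 70 further symbols of pathway genes were listed, of which 65 were measured. In the NEMO knockout against wild type 11 were higher and 2 lower, and in the labelled double knockout 6 were higher and 4 lower. None was called by limma between the knockout groups, where 10 had an unadjusted p under 0.05. No share of all probe sets at that unadjusted threshold is given in this text, so counts at it have no background beside them. The shares of all probe sets called were 5.66% higher and 2.02% lower in the NEMO knockout, and 5.81% and 3.51% in the labelled double knockout. After median centring of every array, the shares became 4.51% and 4.04% in the former and 4.52% and 5.74% in the latter.

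In the non-canonical pathway, 3 of 6 measured genes rose in each comparison with wild type and none fell, with a median difference over the 6 of 0.25 for the NEMO knockout and 0.14 for the labelled double knockout. Map3k14, the NF-κB-inducing kinase that starts this pathway, read 6.01, 6.05 and 6.07 on the wild type arrays, 6.64, 6.87 and 6.88 on the NEMO knockout arrays, and 6.62, 6.62 and 6.76 on those of the labelled double knockout. Its knockout arrays lay well clear of wild type. It was 0.75 higher in the NEMO knockout (SE 0.08, limma adjusted p = 0.000752) and 0.62 higher in the labelled double knockout (SE 0.08, adjusted p = 0.00149), and both calls were kept under every alternative run.

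The other genes of this list that rose encode receptors. Tnfrsf11a, the receptor for RANK ligand, read 6.57, 6.49 and 6.62 on the wild type arrays, 6.91, 6.94 and 6.88 on the NEMO knockout arrays, and 6.86, 6.81 and 6.80 on those of the labelled double knockout. It was 0.35 higher in the NEMO knockout (SE 0.06, limma adjusted p = 0.00763), where the call was kept throughout. In the labelled double knockout it was 0.26 higher (adjusted p = 0.0255), a call lost on leaving out replicate 1 (0.0669) or 2 (0.0746) of wild type or any 1 of the labelled double knockout arrays (0.0846, 0.0617 and 0.0694), and lost too with median centring (0.0807) or with quantile normalisation (0.078).

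Tnfrsf12a, the receptor for the cytokine TWEAK, read 7.55, 7.58 and 7.52 on the wild type arrays, 8.13, 8.72 and 7.97 on the NEMO knockout arrays, and 8.11, 8.16 and 8.38 on those of the labelled double knockout. All its knockout arrays lay above wild type, with the widest spread in the NEMO knockout. The differences were 0.72 (SE 0.17, limma adjusted p = 0.0283) and 0.67 (SE 0.17, adjusted p = 0.0358). The first call was lost without any 1 of the wild type arrays (0.0800, 0.0772 and 0.0916), and the second without any 1 of the wild type arrays (0.0945, 0.0872 and 0.108) or of the labelled double knockout arrays (0.0686, 0.0762 and 0.130). Both were lost when every probe set of the table was tested (0.0528 and 0.0621).

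Upstream of IKK in the canonical pathway, 1 of 16 measured genes was called in the NEMO knockout and none in the labelled double knockout, where 3 had an unadjusted limma p under 0.05. The median differences were -0.02 and -0.10. Tnfrsf1a, the main receptor for tumour necrosis factor on hepatocytes, was 0.35 higher in the NEMO knockout (SE 0.08, limma adjusted p = 0.0284). In the labelled double knockout it differed from wild type by 0.20 (adjusted p = 0.187). The NEMO knockout call was lost without any 1 of the wild type arrays (0.0907, 0.0796 and 0.0697), without NEMO knockout replicate 2 (0.0915) or 3 (0.0929), and with median centring (0.0729).

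None of the 5 other IκB proteins and none of the 5 IKK-related kinases and adaptors was called by limma in either knockout group against wild type. At an unadjusted p under 0.05 there were 3 and 1 of the IκB proteins in the NEMO knockout and the labelled double knockout, and 1 and 1 of the kinases and adaptors. The median difference of the other IκB proteins was 0.18 for the NEMO knockout and -0.07 for the labelled double knockout.

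Among ubiquitin editors and negative regulators, 2 of 9 measured genes rose in the NEMO knockout and none was called in the labelled double knockout, where 4 had an unadjusted limma p under 0.05. Tnip1 encodes an adaptor that binds A20. It was 0.35 higher in the NEMO knockout (SE 0.08, limma adjusted p = 0.0251), a call lost on leaving out replicate 2 (0.0755) or 3 (0.0820) of wild type, or replicate 2 (0.0696) or 3 (0.0952) of the NEMO knockout. Otud7b, a deubiquitinase, was 0.30 higher (SE 0.07, adjusted p = 0.0382). That call was lost on leaving out replicate 1 (0.123) or 2 (0.112) of wild type, replicate 2 (0.122) or 3 (0.119) of the NEMO knockout, or replicate 1 (0.0516) or 3 (0.0623) of the labelled double knockout, and both calls were lost with median centring (0.0641 for Tnip1 and 0.106 for Otud7b).

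Genes commonly listed as NF-κB targets moved in both directions. Of 24 measured, 5 rose and 2 fell in the NEMO knockout, and 3 rose and 4 fell in the labelled double knockout, with medians of 0.22 and 0.08 beside -0.04 and -0.03 over all probe sets. Vcam1, an adhesion molecule for leukocytes, read 6.54, 7.61 and 7.06 on the wild type arrays, 9.27, 9.48 and 9.37 on the NEMO knockout arrays, and 9.99, 9.59 and 10.01 on those of the labelled double knockout. All knockout arrays were above wild type, by 2.30 on average in the NEMO knockout (SE 0.23, limma adjusted p = 0.000577) and by 2.80 in the labelled double knockout (SE 0.23, adjusted p = 0.000198).

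Lcn2, which encodes the iron-siderophore-binding protein lipocalin, was 2.19 higher in the NEMO knockout (SE 0.37, limma adjusted p = 0.0064) and 2.24 higher in the labelled double knockout (adjusted p = 0.00497). Saa3, an acute-phase serum amyloid, moved the other way. It read 6.40, 6.81 and 6.61 on the wild type arrays, 5.63, 5.15 and 5.55 on the NEMO knockout arrays, and 5.82, 5.50 and 5.62 on those of the labelled double knockout. Every knockout array was below wild type, by 1.17 on average in the NEMO knockout (-1.17, SE 0.15, adjusted p = 0.00159) and by 0.96 in the labelled double knockout (-0.96, SE 0.15, adjusted p = 0.0037). The calls for Vcam1, Lcn2 and Saa3 in both comparisons were kept under every alternative that gave a value.

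Ccl5, a chemokine for T cells and monocytes, was 1.09 higher in the NEMO knockout (SE 0.23, limma adjusted p = 0.0211), a call lost without wild type replicate 2 (0.0796) or 3 (0.0678). In the labelled double knockout it differed from wild type by 0.47 (adjusted p = 0.304), and the knockout groups differed by -0.62 (adjusted p = 0.591). Gadd45b, a stress-induced gene, was 0.72 higher in the labelled double knockout (SE 0.15, adjusted p = 0.0187), a call lost without wild type replicate 1 (0.0651) or 3 (0.0725). The naming rule takes 4 genes a list, and the other called targets, chosen after their values were seen, were Gadd45b, Icam1 and Sod2 in the NEMO knockout (0.82, 0.49 and -0.30) and Mmp9, Cflar and Sod2 in the labelled double knockout (-0.53, -0.51 and -0.29); these values were not rerun under the alternatives. Cflar encodes an inhibitor of caspase activation, and Sod2 the mitochondrial superoxide dismutase. With only the groups compared in the fit, the NEMO knockout calls of Tnfrsf12a (0.0682), Tnip1 (0.0703), Otud7b (0.0739) and Ccl5 (0.0620) and the labelled double knockout call of Gadd45b (0.0612) were lost. Quantile normalisation ended those of Tnip1 (0.0629) and Otud7b (0.0614), and median centring that of Tnfrsf12a in the labelled double knockout (0.0522), all as limma adjusted p.

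**Figure D3:**
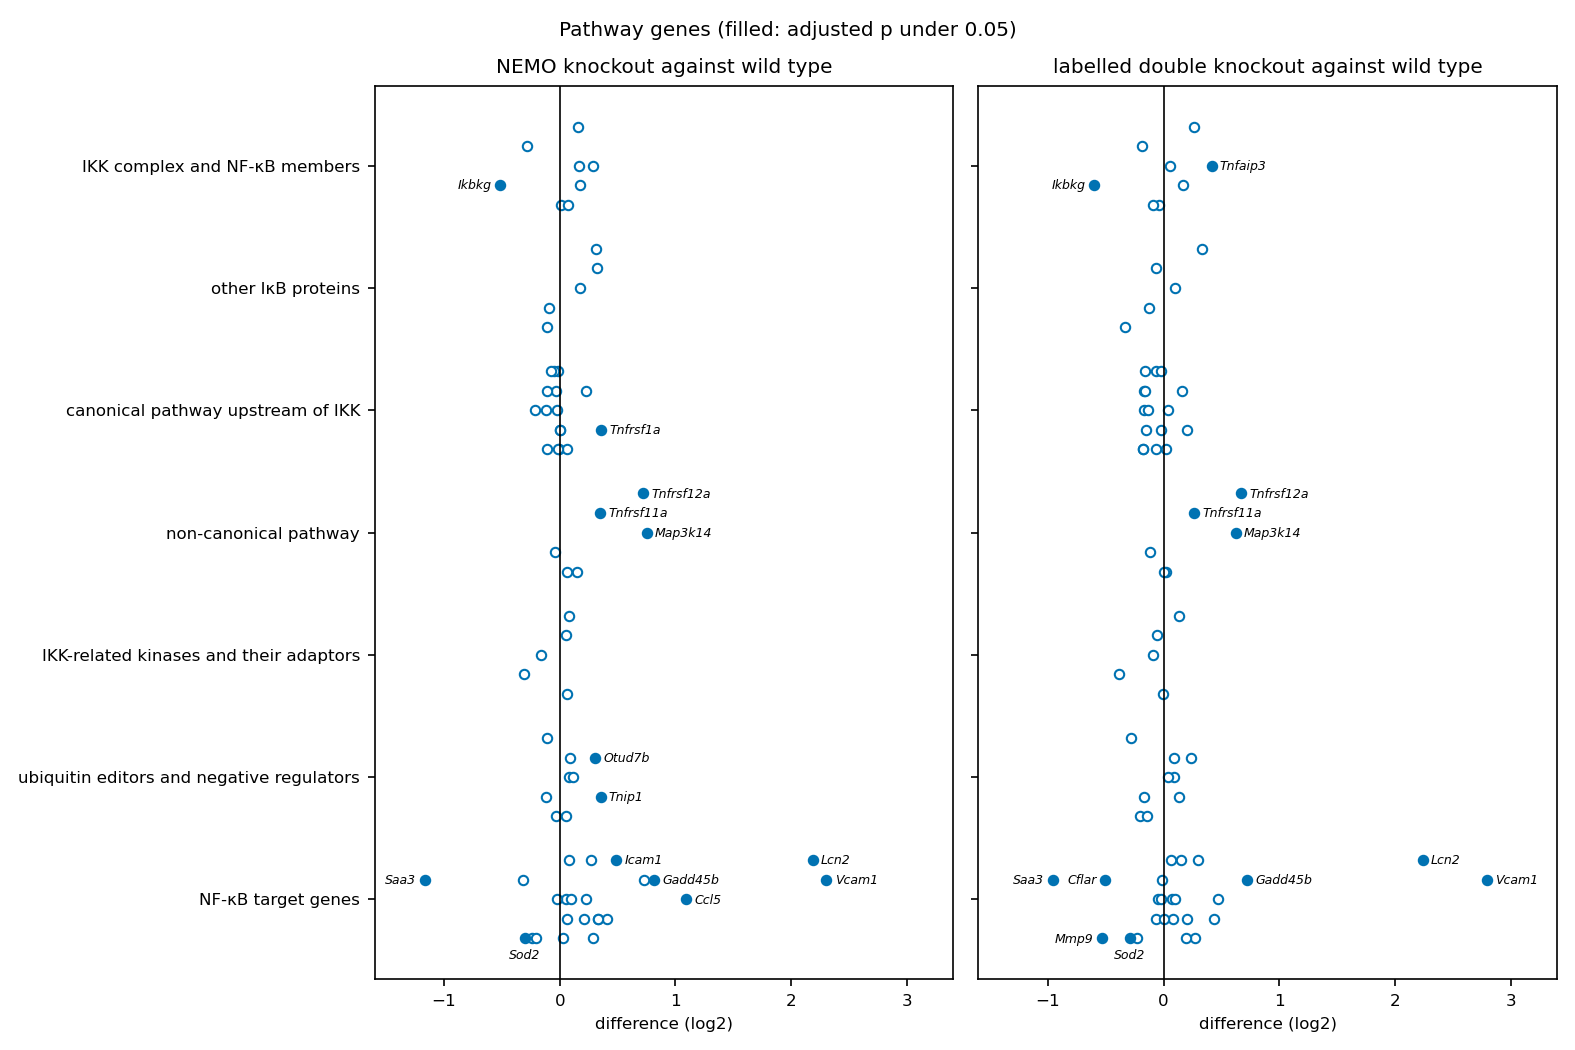
Difference from wild type (log2, horizontal axis) of each measured gene, by list (rows; vertical scatter within a row only separates the points), in the NEMO knockout and the labelled double knockout; filled points passed an adjusted p of 0.05 and are named. Filled points of the non-canonical pathway lie to the right of 0 in both panels, and those of the NF-κB targets lie on both sides, from Saa3 at -1.17 to Vcam1 at 2.80.

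Markers of some cell types other than hepatocytes were called higher in both knockout groups. In the NEMO knockout 7 of 9 Kupffer cell markers and 7 of 8 markers of monocytes and infiltrating macrophages were called higher. So were 6 of 7 stellate cell markers, beside 5.66% of all probe sets tested. In the labelled double knockout the counts were 7 of 9, 7 of 8 and 6 of 7, beside 5.81%. None of these markers was called lower, though 1 of the 9 Kupffer markers lay below wild type in the labelled double knockout (difference -0.17, not called). The markers with the largest differences in the NEMO knockout were Gpnmb (3.56), Mmp12 (3.51) and Itgax (1.62) for monocytes and macrophages, and Col1a1 (1.69), Cygb (1.38) and Pdgfrb (1.36) for stellate cells. The same genes stood in the labelled double knockout at 3.96, 3.67 and 1.48, and at 1.65, 1.16 and 1.06, with every one of these calls kept under all alternatives run. Of the Kupffer markers, Adgre1 was higher by 0.99 and 0.93 in the same order, C1qb by 0.95 in the NEMO knockout and Cd5l by 0.89 in the labelled double knockout, also kept throughout. Marco, higher by 1.03 and 0.92, lost both calls without wild type replicate 1 (limma adjusted p = 0.0673 and 0.0945) or 3 (0.0718 and 0.0976), and the second also without any 1 of the labelled double knockout arrays (0.0829, 0.0863 and 0.0586). Its first call was lost too with only the groups compared in the fit (0.0539), and its second with every probe set of the table tested (0.0505). The mean log2 signal of the monocyte and macrophage list was 6.12 to 6.25 over wild type arrays, 7.76 to 7.92 in the NEMO knockout and 7.75 to 8.06 in the labelled double knockout. The Kupffer list stood at 8.74 to 8.88, 9.38 to 9.57 and 9.38 to 9.51, and the stellate list at 9.00 to 9.14, 9.92 to 10.15 and 9.85 to 9.98. The means of these lists thus lay higher on every knockout array than on every wild type array. The neutrophil, T and NK cell and cholangiocyte lists did so as well. Their wild type means reached at most 5.11, 5.68 and 6.46. The lowest means were 5.35, 5.91 and 6.83 in the NEMO knockout and 5.23, 5.70 and 6.66 in the labelled double knockout. The B cell, endothelial and hepatocyte means overlapped between genotypes. Rel, Relb, Tnfaip3, Map3k14 and Vcam1 are among the genes that also lay higher on every knockout array, while Ikbkg lay lower on every knockout array. Of all probe sets tested, 16.1% separate both knockout groups from wild type in either direction. A link between the lists and these genes was not tested.

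Fewer markers were called in the remaining lists, where the same shares of all probe sets called higher (5.66% and 5.81%) apply. T and NK cell markers rose in the NEMO knockout in 3 of 8 and none was called in the labelled double knockout (1 at an unadjusted limma p under 0.05), neutrophil markers rose in 2 and 1 of 6, and cholangiocyte markers in 2 and 2 of 5. The T and NK cell markers called were Cd3g (0.91), Nkg7 (0.73) and Ncr1 (0.73), the neutrophil markers Retnlg (0.76) and Csf3r (0.68, and 0.36 in the labelled double knockout), and the cholangiocyte markers Cd24a (1.56 and 1.26) and Epcam (0.74 and 0.68). With 1 array left out the NEMO knockout calls of Ncr1, Csf3r and Cd24a were kept. Those of Cd3g, Nkg7, Retnlg and Epcam, and the labelled double knockout calls of Csf3r, Cd24a and Epcam, were lost, with adjusted p up to 0.0532, 0.112, 0.106 and 0.113, and 0.110, 0.0738 and 0.130. The arrays concerned were any 1 of wild type (replicate 2 alone for Cd3g), replicate 2 of the NEMO knockout for Cd3g and Nkg7 and any 1 of it for Epcam, and of the labelled double knockout replicate 1 for Nkg7, replicate 3 for Retnlg and Cd24a and any 1 for Csf3r. Between the knockout groups limma called no marker of any list. An unadjusted limma p under 0.05 was found in 4 of 8 T and NK cell markers and 3 of 6 neutrophil markers. All of these were lower in the labelled double knockout. The same threshold was also passed by 2 of 8 monocyte and macrophage, 1 of 9 Kupffer, 1 of 7 stellate and 1 of 6 endothelial markers. No hepatocyte, B cell or cholangiocyte marker passed it. No background share stands beside these counts, so they do not set the T and NK cell or neutrophil lists apart. No marker of B cells (5 measured), endothelium (6) or hepatocytes (9) was called in either knockout group against wild type. At an unadjusted limma p under 0.05 there were 0, 0 and 1 of them in the NEMO knockout and 0, 2 and 2 in the labelled double knockout, in that order. With both knockout groups together against wild type, 1 hepatocyte marker, Cyp2e1, was called lower (-0.24, limma adjusted p = 0.0382). That call was lost in 8 of 20 alternatives, among them without any 1 of the wild type arrays (0.111, 0.0736 and 0.137). Hepatocyte markers averaged 13.16 to 13.24 over wild type arrays, 13.12 to 13.21 over those of the NEMO knockout and 13.07 to 13.27 over those of the labelled double knockout. No marker has a signal of 0 on these normalised arrays, and the lowest was 3.92. The part of other cells in the values of the IKK and NF-κB genes was not tested.

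The genes that lie next to Ikbkg on chromosome X were set beside it. The 3 nearest measured genes on one side were Plxna3, Lage3 and Fam3a, and on the other Olfr1325, Gab3 and Dkc1. Plxna3, a semaphorin receptor, read 6.48, 6.41 and 6.46 on the wild type arrays, 6.90, 6.89 and 6.86 on the NEMO knockout arrays, and 6.75, 7.16 and 6.95 on those of the labelled double knockout. It went opposite to Ikbkg, at 0.44 higher in the NEMO knockout (SE 0.09, limma adjusted p = 0.0214) and 0.51 higher in the labelled double knockout (adjusted p = 0.00934). The NEMO knockout call was lost without any 1 of the wild type arrays (0.0550, 0.0712 and 0.0657) or of the NEMO knockout arrays (0.0511, 0.0666 and 0.0623).

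The other 5 neighbours were not called in any comparison. Lage3 and Fam3a differed from wild type by -0.21 and -0.16 in the NEMO knockout (limma adjusted p = 0.253 and 0.175). Dkc1, a component of telomerase and of small nucleolar ribonucleoproteins, differed by -0.18 (adjusted p = 0.251) and Gab3 by 0.32 (adjusted p = 0.163). Olfr1325 differed by -0.26 (limma adjusted p = 0.330). Its signals of 3.12 to 3.78 lay below the lowest signal of any listed marker (3.92), so its value says little.

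**Figure D4:**
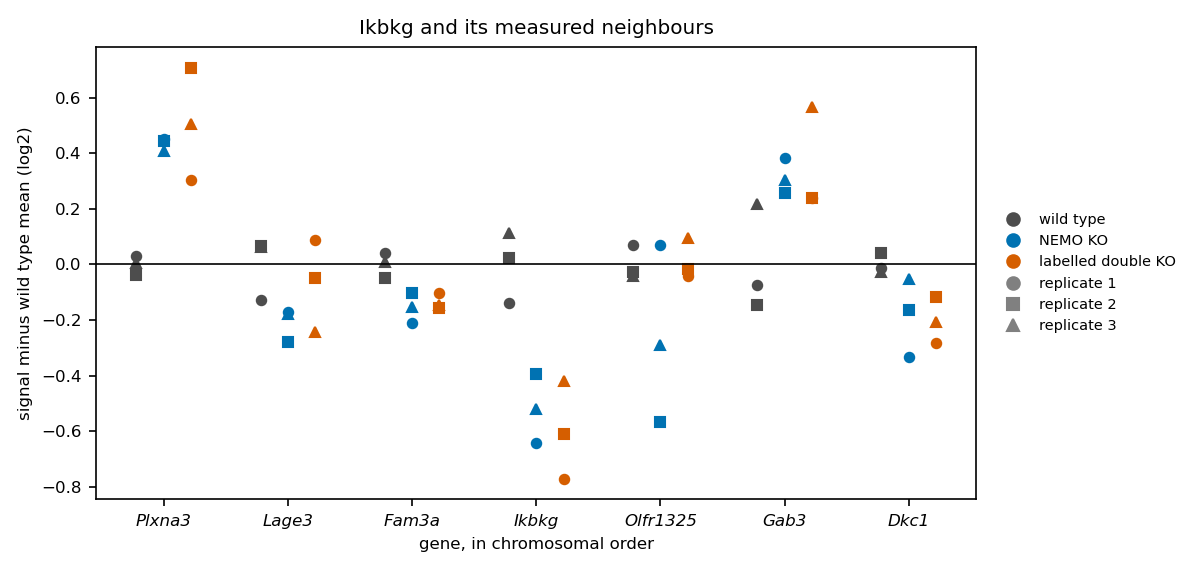
Log2 signal minus the gene's wild type mean (vertical axis) on each array for Ikbkg and its 6 nearest measured neighbours in chromosomal order (horizontal axis; not to scale); colours give the genotype and symbols the replicate. Ikbkg lies below 0 on all 6 knockout arrays and Plxna3 above 0 on all 6, and the wild type points scatter about 0.

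The genes whose centred profile over the 9 arrays lay closest to that of Ikbkg, by root mean square distance among 17092 genes, were Ern1 (0.084 log2 units), Klhl2 (0.090), Dcun1d2 (0.092), Nsd3 (0.094) and B3gat3 (0.099). Ern1, which encodes the endoplasmic reticulum stress sensor IRE1, read 10.23, 10.44 and 10.55 on the wild type arrays, 9.92, 9.94 and 9.78 on the NEMO knockout arrays, and 9.64, 9.85 and 9.85 on those of the labelled double knockout. It shares with Ikbkg the lower signal in all 6 knockout arrays. These genes were chosen for their likeness, the profiles come from the same arrays, and no test was made.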

How the data were processed

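Total RNA of liver was hybridised to single-channel Affymetrix arrays. The table deposited by the authors holds log2 values per probe set and array, made with RMA per the submitters' processing notes; RMA's quantile step hides a general shift of all RNA. The log base is taken from RMA and the range of the values. Of 35556 rows, 6617 (18.6%), unannotated and with identifiers below the first annotated one, were taken as control probe sets and left out. Of the 28939 tested, 21789 carry 1 symbol, 1621 several and 5529 none; a gene is read by its brightest single-symbol probe set. Groups were compared by linear models (limma, version 3.58.1, under R 4.3.3; functions lmFit and eBayes; all 9 arrays), adjusted by the Benjamini-Hochberg method over all probe sets tested, with calls at an adjusted p under 0.05; the fit was tested on simulated data. No pair of arrays was identical. Alternatives were other scalings, filters, priors, weights, probe set rules, a replicate block and leaving out each array.

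The members and the lists were chosen with earlier results of these data known. Named are all members, up to 4 called genes per pathway list with the largest difference, up to 3 per marker list, 3 measured neighbours on each side of Ikbkg and the 5 genes most like it. The labels do not state that the replicates are separate animals. The p-values set group differences against the spread between these samples, which may not be the spread between animals. The number of arrays limits the precision. The sources used here give no software version for RMA.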

Additional observations from a re-analysis of the deposited data

How the results depend on the processing

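Called members numbered 1 in the NEMO knockout against wild type, and 0 to 2 with 1 array left out. In the labelled double knockout against wild type the count fell from 2 to 1 with only the groups compared in the fit, median centring, quantile normalisation, an intensity trend, a robust prior or all probe sets of the table tested, and it was 1 to 2 with 1 array left out. It rose to 3 with cyclic loess, where Rel was added, and stayed at 2 under the replicate block, where Rel was gained and Tnfaip3 lost. For both knockout groups together it fell from 2 to 1 with the replicate block, median centring, quantile normalisation, an intensity trend or all probe sets tested, and was 1 to 2 with 1 array left out. Wherever these counts against wild type in the labelled double knockout or in both groups fell to 1, Ikbkg was kept and Tnfaip3 lost.

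The labels give no pairing by replicate number, and the values did not settle whether there was one. Deviations of same-numbered arrays correlated at -0.12 to 0.39, with 3 of 9 pairs over 0.1. The highest was between replicate 1 of the NEMO knockout and replicate 1 of the labelled double knockout. In 9 of 18 matches the best match carried the array's own number. With the replicate block the Ikbkg adjusted p was 0.00636, 0.800, 0.00338 and 0.00199 (NEMO knockout against wild type, between the knockout groups, labelled double knockout against wild type, both together), that of Tnfaip3 was 0.200, 0.797, 0.0707 and 0.0668, and Rel passed in the labelled double knockout (0.0434), as with cyclic loess (0.049).

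The values that turned sign were not called; most lay near 0, but Nfkbia at -0.19 (labelled double knockout against wild type) and -0.23 (both together) did so without wild type replicate 2. Ikbkb became -0.0505 with median centring in the NEMO knockout, 0.0113 with cyclic loess in the labelled double knockout, and 0.0252 with cyclic loess and 0.00199 with array weights for both together. Nfkb2 in the labelled double knockout became -0.00735 with median centring and -0.000804 with quantile normalisation. Rela for both together became 0.00102, 0.0321 and 0.00509 with quantile normalisation, cyclic loess and array weights. With 1 array left out, the ranges that cross 0 were -0.00911 to 0.0258 in Ikbkb for the NEMO knockout against wild type. Between the knockout groups they were -0.171 to 0.00541 in Ikbkg, -0.0940 to 0.0138 in Ikbkb, -0.0243 to 0.00739 in Relb, -0.0250 to 0.217 in Nfkbia and -0.0113 to 0.201 in Tnfaip3. For the labelled double knockout against wild type they were -0.0822 to 0.0256 in Ikbkb and -0.380 to 0.0864 in Nfkbia, and for both together -0.0352 to 0.0187 in Ikbkb, -0.0335 to 0.0102 in Rela and -0.428 to 0.0389 in Nfkbia. The causes were not tested. Relb fell under the filter on low values and has no value there, and for both knockout groups together the fit on only the groups compared is the reported one.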
